A study of Mus musculus with 42 samples.

Results

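The genes described here encode the proteasome and the Ube2 ubiquitin-conjugating enzymes of early mouse embryos. They were taken by symbol from the deposited expression table, as rows whose symbol begins with Psm, a letter from a to g and a digit, or with Ube2 and a letter, without pseudogene symbols. The rule found 48 of the 15737 genes listed once, 24 in each family, and it used no measured value. Embryos of ICR mice at the 2-cell and 4-cell stages were collected after injection of human chorionic gonadotropin (hCG), with early 2-cell embryos taken at 34 h, late 2-cell embryos at 48 h and 4-cell embryos at 58 h. Early 2-cell embryos and late 2-cell and 4-cell controls, all labelled WT and untreated, were set beside embryos cultured in FK866 at 0.01 µM, which blocks the enzyme NAMPT of NAD salvage, or in FK866 with NMN, the NAD precursor made by that enzyme, at 10 µM. Late 2-cell embryos were also treated with the histone deacetylase inhibitor TSA at 10 nM, or carry the label Sirt1, a NAD-dependent deacetylase. For it the methods describe zygotes injected with siRNA, antibodies against SIRT1 and mRNA of the ubiquitin ligase Trim21 together. The negative control there was scrambled siRNA with Trim21 mRNA. No column is labelled as that injected control. Where Sirt1 is set against the late 2-cell control, injection and knockdown therefore cannot be told apart. Per the methods the inhibitors were dissolved in DMSO and NMN in water, with DMSO as the negative control, and each library pooled 3 embryos. In such bulk samples, fewer cells of a type and less RNA per cell cannot be told apart.

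The table holds 1 column of FPKM (fragments scaled to exon length and to library size) for each of the 9 groups, and the values of a column are sums over its libraries. Whole reads were recovered for 16 libraries of 3169677 to 10003481 reads, called A (the deeper) and B, because 7 columns showed 2 libraries and a pair of columns, that headed 4-cell-FK866 and that headed 4-cell-FK866-NMN, showed 1. The header and the study's supplementary tables disagree on 5 columns. The table values listed for 4-cell control, 4-cell FK866 and 4-cell FK866 with NMN equal those of the columns headed late-2-cell-TSA, late-2-cell-Sirt1 and 4-cell-con in 84 of 84 genes each, within a relative tolerance of 1e-05. The directions listed for TSA match the column headed 4-cell-FK866 in 1203 of 1203 genes and the column headed late-2-cell-TSA in 546. Those listed for Sirt1 match the column headed 4-cell-FK866-NMN in 773 of 821 genes and the column headed late-2-cell-Sirt1 in 442.

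The targeted gene and the stage markers also went against the headers. Sirt1 stood at 86.6 and 66.2 FPKM in the late 2-cell control libraries and at 32.4 and 73.1 in the column headed late-2-cell-Sirt1, but at 7.61 in the column headed 4-cell-FK866 and 11.3 in that headed 4-cell-FK866-NMN. By the tables, the column at 7.61 is TSA and that at 11.3 is Sirt1. The low level is thus not particular to the column that the tables give as Sirt1. The summed level of 5 genes of the 2-cell stage (3 Zscan4 genes, Zfp352 and Usp17lc) was 151 to 391 FPKM per library in the 4 undisputed columns. It was 235 in the column headed 4-cell-FK866 and 311 in that headed 4-cell-FK866-NMN, but 10.6, 22.0 and 35.7 in those headed late-2-cell-TSA, late-2-cell-Sirt1 and 4-cell-con. Of the oocyte markers 4 of 6 had a row, and they summed to 35.3, 71.8 and 87.3 FPKM in the columns headed late-2-cell-TSA, late-2-cell-Sirt1 and 4-cell-con, against 101 to 291 in the other columns, with 258 in that headed 4-cell-FK866. The 3 of 7 cumulus markers with a row summed to 0 to 8.12 FPKM and the 3 blood markers to 0.397 to 131, both highest in the column headed 4-cell-FK866, and their part in the results was not tested. None of the 4 sperm markers has a row. Columns are therefore called by their headers, and each comparison that touches the 5 columns is given by header and by the tables.

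The proteasome degrades proteins that carry chains of ubiquitin. Its barrel-shaped 20S core is built from alpha and beta subunits, and the 19S cap, made of ATPases and other subunits, recognises, unfolds and feeds in the substrate. Ube2 proteins are the E2 enzymes that receive activated ubiquitin, or a related protein such as NEDD8 or ISG15, and pass it to the target with the help of a ligase. In early embryos this system removes maternal proteins and drives the cell cycle, where the anaphase-promoting complex (APC/C) works with UBE2C, which starts ubiquitin chains, and UBE2S, which extends them.

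The 24 proteasome genes were 4 alpha subunits (Psma1, Psma4, Psma5, Psma7), 4 beta subunits (Psmb2, Psmb4, Psmb7, Psmb10), 3 cap ATPases (Psmc2, Psmc3, Psmc4), 6 other cap subunits (Psmd1, Psmd4, Psmd7, Psmd8, Psmd13, Psmd14), 3 assembly factors (Psmd5, Psmd9, Psmg3), 2 alternative activators (Psme2b, Psme4), the inhibitor Psmf1, and Psme3ip1, an interactor of an activator and no subunit. The 24 Ube2 genes were the APC/C partners Ube2c and Ube2s, the general enzymes Ube2d1, Ube2d2b, Ube2d3 and Ube2e3, the lysine-63 group Ube2n, Ube2nl and Ube2v1, and Ube2j1, Ube2j2 and Ube2g2 of the endoplasmic reticulum. Ube2f, Ube2m and Ube2l6 conjugate ubiquitin-like proteins, the others were Ube2h, Ube2k, Ube2q1, Ube2q2, Ube2r2, Ube2t, Ube2u and Ube2w, and Ube2cbp, named as a binding protein of UBE2C, is no E2. All members lie on chromosomes 1 to 11, the only ones the table covers. The last of its 15748 rows is cut short, leaving 15747 complete, so chromosome 11 may be covered only in part. Members beyond these rows, there or elsewhere in the genome, were not analysed here. Of the genes set for naming by role, Psmb5, Psmb6, Psmb8, Psmb9, Psmb11, Psma8, Ube2b and Ube2o are among those with no row.

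Levels differed widely between members, and FPKM is a scale per length. The highest mean levels over the 9 columns among proteasome genes were those of Psmd8 at 119 FPKM, Psmd7 at 104, Psmd4 at 80.4, Psmb2 at 71.1, Psma4 at 61.0 and Psmb4 at 57.4. Ube2c led the other family at 179 FPKM, before Ube2e3 at 64.2, Ube2d3 at 59.2, Ube2j2 at 53.2, Ube2s at 49.9 and Ube2k at 43.2. At least 1 FPKM per library was reached in every column by 17 proteasome and 13 Ube2 genes. No member was at 0 in all 9 columns, but Ube2d2b, Ube2f, Ube2l6, Ube2nl and Ube2v1 averaged under 1 FPKM. Ube2l6, which conjugates ISG15, had 16 reads in library B of the column headed late-2-cell-Sirt1 and at most 2 in any other. Ube2d2b, of the Ube2d class of general E2 enzymes, had 41 reads in library B of the late 2-cell control and none elsewhere. Ube2v1, the partner that lets UBE2N build chains through lysine 63 of ubiquitin, had 69 reads in library A of the column headed late-2-cell-Sirt1 and at most 5 elsewhere, while Ube2n itself averaged 38.4 FPKM. Ube2f and Ube2m, the E2 enzymes for NEDD8, averaged 0.853 and 2.09 FPKM. Ube2n, Psma5 and the Ube2d genes have pseudogene copies in the table (Ube2n-ps1 at 18.3 to 73.9 FPKM per library), and Psme2b is a copy of Psme2, so their reads may be shared. In the annotation 15 members overlap a second coding gene. Among them are Psmd13 with Sirt3, Psma4 with AY074887, Ube2s with Rpl28 and Ube2c with Tnnc2 on opposite strands. Ube2v1 with Gm20431, Psmg3 with Gm26938 and Ube2g2 with Gm49325 overlap on the same strand. The strand of the reads was not given in the sources used here. The part of these overlaps in the levels, such as the few reads of Ube2v1, was not tested.

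**Figure D1:**
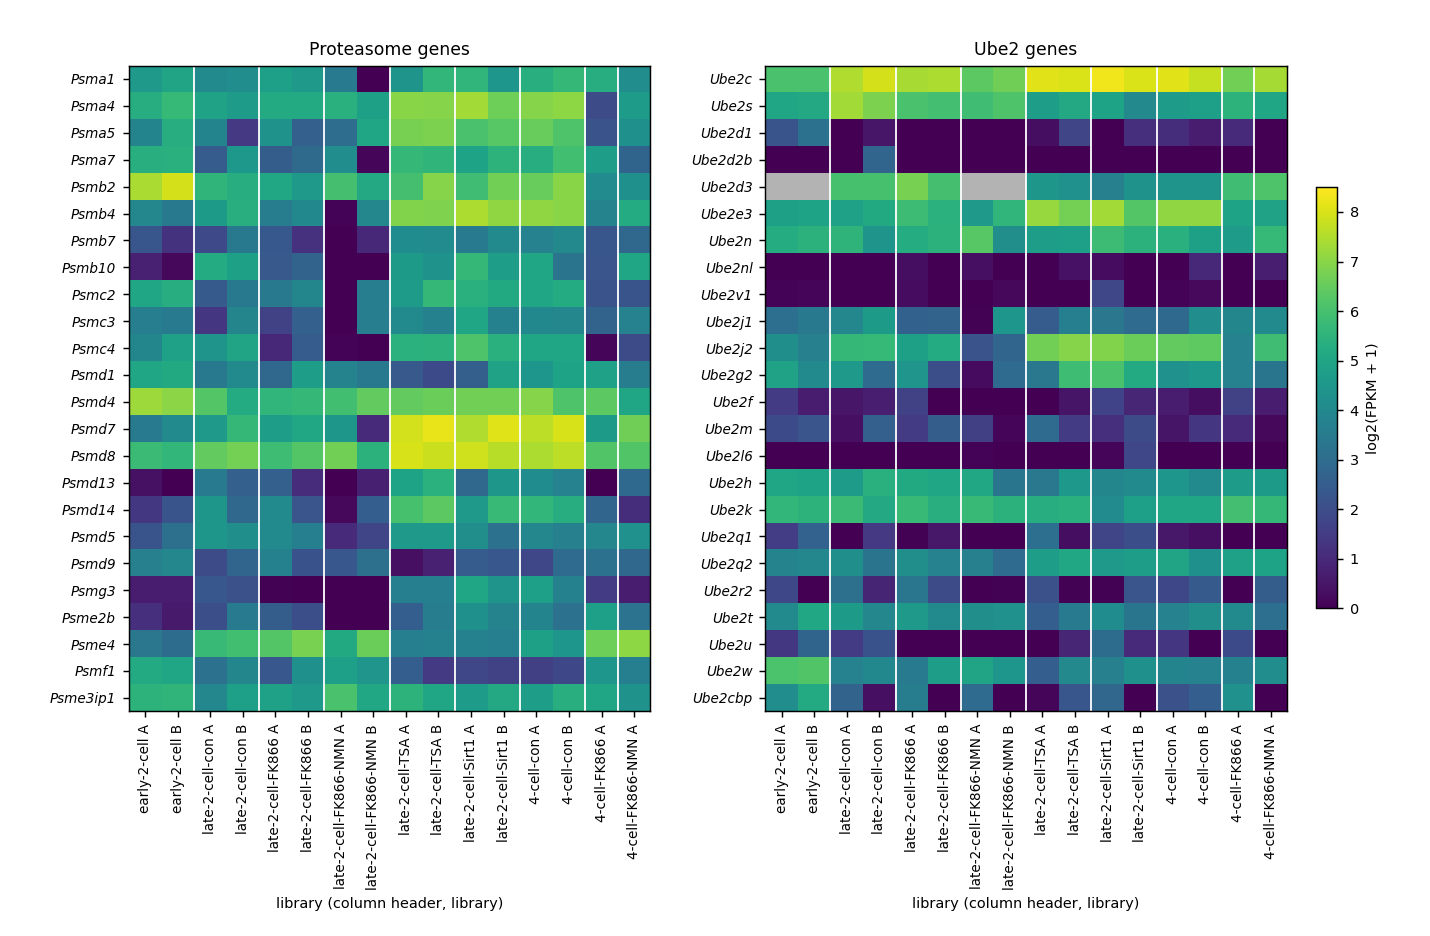
Level of each proteasome gene (left) and Ube2 gene (right) as log2(FPKM + 1) in the 16 recovered libraries, named by column header and letter, with white lines between columns and grey where Ube2d3 could not be separated into libraries. Most 20S and 19S genes are brightest in the 6 libraries headed late-2-cell-TSA, late-2-cell-Sirt1 and 4-cell-con, while Psme4 is darker there than in the late 2-cell control libraries.

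Upstream sequences are shown for 4 genes, the alpha subunits Psma4 and Psma5, the activator Psme4 and the E2 enzyme Ube2s. They are the 250 bases before the RefSeq start (GRCm38.p6), at chr9:54950609-54950858 on the plus strand for Psma4, chr3:108256676-108256925 on the plus strand for Psma5, chr11:30771525-30771774 on the plus strand for Psme4 and chr7:4812341-4812590 on the minus strand for Ube2s. Capitals mark matches to any of 4 motifs searched on both strands.
Psma4: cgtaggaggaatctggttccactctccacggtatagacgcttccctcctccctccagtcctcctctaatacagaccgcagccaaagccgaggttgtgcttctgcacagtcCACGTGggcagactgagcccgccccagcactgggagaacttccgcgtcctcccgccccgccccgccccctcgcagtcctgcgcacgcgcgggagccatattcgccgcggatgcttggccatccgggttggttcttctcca
Psma5: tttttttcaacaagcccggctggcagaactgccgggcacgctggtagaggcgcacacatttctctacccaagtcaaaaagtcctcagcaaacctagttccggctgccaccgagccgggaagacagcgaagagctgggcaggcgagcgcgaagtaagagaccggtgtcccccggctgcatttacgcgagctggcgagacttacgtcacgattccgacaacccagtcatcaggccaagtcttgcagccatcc
Psme4: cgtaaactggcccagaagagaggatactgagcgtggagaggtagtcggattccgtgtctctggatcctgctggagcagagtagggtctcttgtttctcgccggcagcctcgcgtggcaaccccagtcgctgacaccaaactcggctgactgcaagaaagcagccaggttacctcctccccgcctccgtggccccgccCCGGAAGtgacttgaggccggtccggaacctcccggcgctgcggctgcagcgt
Ube2s: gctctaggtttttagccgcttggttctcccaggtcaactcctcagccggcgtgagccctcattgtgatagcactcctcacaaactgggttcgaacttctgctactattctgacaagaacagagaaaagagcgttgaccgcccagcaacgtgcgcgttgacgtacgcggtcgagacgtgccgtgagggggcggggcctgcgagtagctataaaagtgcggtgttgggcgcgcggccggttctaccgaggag
The motifs were TGACNNNGC, the core of the antioxidant element bound by NFE2L1 and NFE2L2, the box CCAAT known for binding NF-Y, the core CCGGAAG of sites for ETS factors, and the E-box CACGTG. No motif holds another. Psma4 holds CACGTG with its first base 140 bases before the start (position -140), Psme4 holds CCGGAAG at position -53, and no match lies in these windows of Psma5 and Ube2s. Promoters of 300 bases (250 before and 50 after the start) were matched for 40 of the 48 members. Of these, 5 held TGACNNNGC against 12.5% of all 27025 promoters, and 11 held CCAAT against 37.9%. CCGGAAG was in 10 of the 40 against 9.12% of all promoters, and CACGTG in 5 against 7.24%. Both families held them in like numbers, at 5 proteasome and 5 Ube2 genes for CCGGAAG.

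The summed level of the core and cap genes was higher in 6 of the 16 libraries than in the others. The summed FPKM of the 17 alpha, beta, ATPase and other cap subunits was 610 and 724 in the early 2-cell libraries and 425 and 453 in the late 2-cell controls. It was 309 and 328 with FK866 and 334 and 277 with FK866 and NMN at the late 2-cell stage. The columns headed late-2-cell-TSA, late-2-cell-Sirt1 and 4-cell-con stood far above these, at 1286 and 1454, at 1290 and 1275, and at 1221 and 1274. The single libraries headed 4-cell-FK866 and 4-cell-FK866-NMN stood at 328 and 398. Not every subunit followed the sum. Psmb2 held 169 and 244 FPKM in the early 2-cell libraries and at most 125 in the 6, and Psmd4 held 153 and 129 against at most 124. Psmd1 held 31.9 and 34.9 against at most 29.8. The 3 columns at the high level are those with the lowest summed 2-cell and oocyte markers, and the part of the markers in this difference was not tested. By the tables all 3 are of the 4-cell stage, and the part of the stage was not tested either.

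**Figure D2:**
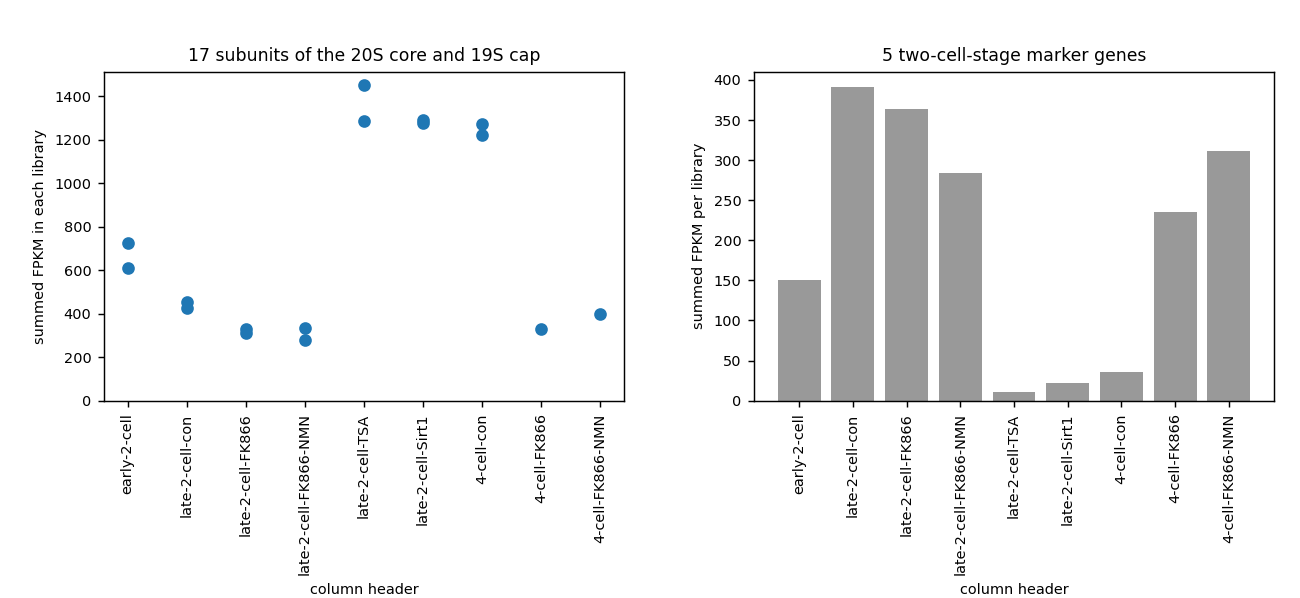
Left, summed FPKM of 17 proteasome core and cap subunits in each recovered library (points) by column header. Right, summed FPKM per library of 5 genes of the 2-cell stage in each column. The columns headed late-2-cell-TSA, late-2-cell-Sirt1 and 4-cell-con hold 1221 to 1454 FPKM of subunits and 10.6 to 35.7 of markers.

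Between the early and the late 2-cell stage members of the 2 families moved in both directions. Psmb10, the trypsin-like subunit of the immunoproteasome, rose from 0.728 and 0.126 FPKM (7 and 1 reads) to 36.9 and 27.7 FPKM (limma adjusted p = 0.000660). Psme4, which encodes the activator PA200 known for opening the core to acetylated histones, stood at 9.25 and 7.07 FPKM in early and 53.8 and 60.4 in late embryos. Neither gene's libraries overlapped, and Psme4 rose by 2.67 on the log2 scale of FPKM plus 1 (SE 0.46, adjusted p = 0.00295). Psmb2, a beta subunit, went the other way, from 169 and 244 FPKM to 46.6 and 37.9 (log2 difference -2.24, SE 0.47, adjusted p = 0.00844).

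Ube2s and Ube2c, the E2 genes classed here as APC/C partners, rose over the same interval. Ube2s went from 31.2 and 33.6 FPKM to 159 and 113 (log2 difference 2.02, SE 0.37, adjusted p = 0.00439). Ube2c went from 66.3 and 66.0 FPKM to 179 and 246 (1.65, SE 0.26, adjusted p = 0.00201). Ube2j2, an E2 of the endoplasmic reticulum, rose as well, from 17.9 and 12.2 to 49.3 and 51.2 FPKM (1.70, SE 0.35, adjusted p = 0.00735).

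In all, 7 members rose and 4 fell by limma's moderated test (Benjamini-Hochberg adjusted p below 0.05) of 44 tested, against 21.3% of all genes called in either direction. Psmd5 and Psmd13 also rose, and Psmd4, Ube2d1 and Ube2w also fell. Psmb10, Psme4, Ube2c, Ube2s and Ube2j2 kept their calls when any 1 of the 4 libraries was left out. Psmb2 lost its call without early library B (adjusted p = 0.0609). Psmd4, Psmd5, Psmd13, Ube2d1 and Ube2w lost theirs without at least 1 of the 4 libraries, each library costing some of these calls, with adjusted p up to 0.144. Other settings also ended calls, a fit of these columns alone those of Psmd4, Psmd5 and Ube2d1, centring each library on its median those of Psmd4 and Psmd5, a pseudocount of 0.1 those of Psmd5 and Ube2d1 and one of 5 that of Psmd13. By size alone, 10 proteasome and 6 Ube2 genes were more than 2-fold higher and 9 and 4 more than 2-fold lower, against 32.2% of all genes higher and 31.7% lower. The medians were -0.10 for the 24 proteasome genes and -0.21 for the 21 Ube2 genes that passed 1 FPKM in either column, and -0.0032 for all genes.

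FK866 moved no member past the threshold at the late 2-cell stage. The count was 0 of 43 members by limma, 5 members had an unadjusted p under 0.05, and 0.878% of all genes passed. Psmc4, a cap ATPase, came closest, at 0.98 and 4.55 FPKM with FK866 against 20.1 and 30.4 in controls (log2 difference -2.96, SE 0.57, adjusted p = 0.0508). Psmb10 stood at 4.19 and 5.56 FPKM against 36.9 and 27.7 in controls (adjusted p = 0.12), and Ube2s at 65.1 and 61.4 against 159 and 113. In these 3 genes both treated libraries lay below both controls, although the test was not passed. Other members lay wholly below as well, while Psma1, Psma4, Psme4 and Ube2e3 lay wholly above. The share of all genes without overlap is not given here. No member was more than 2-fold higher, while 6 proteasome and 4 Ube2 genes were more than 2-fold lower, against 18.1% of all genes higher and 20.0% lower. The median was -0.50 for the proteasome genes, 0.04 for the Ube2 genes and -0.06 for all genes, but without control library B the proteasome median was 0.13.

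With FK866 and NMN together at the late 2-cell stage, several members were not detected. Of the proteasome genes 7 and 5 were at 0 in its 2 libraries, against at most 1 in any other library. Library A had the lowest share of genes at 1 FPKM or more, 27.9%, library B had 36.5% and the other 14 libraries 33.4% to 48.2%, and the part of this in the result was not tested. Ube2j2 fell from 49.3 and 51.2 FPKM in controls to 3.56 and 5.77 (log2 difference -3.20, SE 0.35, adjusted p = 0.00165). Psmd5, an assembly factor that binds cap ATPases, fell from 21.5 and 17.8 to 0.997 and 2.40 FPKM (-2.98, SE 0.51, adjusted p = 0.0108). Psmb10 had no read in either library (adjusted p = 0.00261) and Psmc4 had 1 (adjusted p = 0.00289).

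Against controls, 5 proteasome genes (Psmg3 and Psme2b were the others) and 2 Ube2 genes (Ube2c was the other) fell and none rose, against 6.91% of all genes called. None of the 7 calls was kept in a fit of these 2 columns alone, where 0 members were called, and Psmg3, Ube2c and Psme2b also lost theirs without 1 control library (control library A for Psmg3, adjusted p = 0.0533, and control library B for Ube2c and Psme2b, 0.0677 and 0.0795). The fit of these 2 columns alone called 0 of all 8379 genes, and the like fit against FK866 alone 0 of 8338. Centring on the median ended the calls of Psmd5, Psmg3, Psme2b and Ube2c. By size, 3 proteasome genes and no Ube2 gene were more than 2-fold higher and 11 and 7 lower, against 21.0% and 36.2% of all genes. Against FK866 alone, Psmd5, Psmb10 and Ube2j2 fell, 4.11% of all genes were called, and 18.9% and 33.3% were more than 2-fold higher and lower. Only 1 member, Psmf1, was more than 2-fold higher there, at 26.6 and 20.4 FPKM against 3.93 and 18.0 (not past the test), and 14 were lower. The medians were -0.49 for the proteasome genes, -0.56 for the Ube2 genes and -0.24 for all genes against FK866, and -0.50, -0.73 and -0.35 against controls. Psmd5 lost its call without FK866 library A (adjusted p = 0.0564), and Psmb10 without either FK866 library or NMN library A (0.069 to 0.104), and none of the 3 calls was kept in a fit of these columns alone or after centring on the median.

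Most core and cap genes were higher than in the late 2-cell control, and the E2 genes split, in the columns headed 4-cell-con, late-2-cell-TSA and late-2-cell-Sirt1. Of the 17 subunits 16, 15 and 17 were higher by any amount, with Psmb10 lower in the first 2 columns (-0.68 and -0.56 on the log2 scale) and Psmd1 lower in the second (-1.61). These comparisons share their control libraries. By header they are the step from the late 2-cell to the 4-cell stage, TSA over control and Sirt1 over control. By the tables the column headed late-2-cell-TSA is the 4-cell control, and its comparison is that same stage step. Those headed late-2-cell-Sirt1 and 4-cell-con are then 4-cell FK866 and 4-cell FK866 with NMN. Read so, their comparisons with the late 2-cell control join stage and treatment, which cannot be told apart. The proteasome medians were 0.95, 1.07 and 1.08 on the log2 scale, beside -0.21, -0.44 and -0.28 for all genes. The Ube2 medians were -0.29, -0.33 and 0.29, but with each library centred on its median they were 0.17, 0.29 and 0.75, and without 1 library that of the column headed late-2-cell-TSA ranged from -0.57 to 0.17.

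Psma4 had the lowest adjusted p of the proteasome genes in each of the 3 comparisons. It stood at 29.0 and 24.5 FPKM in the late 2-cell controls, at 122 and 132 in the column headed 4-cell-con, at 127 and 124 in that headed late-2-cell-TSA and at 158 and 96.5 in that headed late-2-cell-Sirt1. Every library of the 3 columns lay above both controls, and the log2 differences were 2.21, 2.19 and 2.17 (SE 0.35 each, adjusted p = 0.00543, 0.00271 and 0.00433). The call was kept in each comparison without any 1 library. Psma5 rose in all 3 columns too, from 13.3 and 1.64 FPKM to 65.6 to 111 (adjusted p = 0.0303, 0.0127 and 0.0314). Its calls were lost without control library B (0.146, 0.0771 and 0.156) and without libraries A or B of each other column (0.0575 to 0.126). Psmd7 and Psmd8, both lid subunits of the cap, passed only against the column headed late-2-cell-TSA (adjusted p = 0.0438 and 0.0396, both lost without any 1 of the 4 libraries). Psmd8 held 254 and 226 FPKM there against 87.6 and 106 in controls. Psmg3, a chaperone of core assembly, rose in the columns headed 4-cell-con and late-2-cell-Sirt1, from 3.97 and 3.32 FPKM to 26.8 and 12.2 (adjusted p = 0.029, lost without control library B, 0.0653, or 4-cell-con library A, 0.0887) and to 30.7 and 20.1 (0.0113).

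Psme4 and Psmf1, the activator and the inhibitor of the core, ran against the subunits. Psme4 stood at 11.6 and 12.4 FPKM in the column headed late-2-cell-TSA and at 12.3 and 11.6 in that headed late-2-cell-Sirt1, against 53.8 and 60.4 in controls (log2 differences -2.15 and -2.16, SE 0.46 each, adjusted p = 0.01 and 0.0132). The first of these calls was lost without library A of its column (0.0506). The column headed 4-cell-con held 27.7 and 21.1 FPKM, also below both controls, without passing the test. Psmf1 stood at 1.71 to 4.76 FPKM in the 6 libraries against 8.21 and 13.9 in controls, and passed in none of the 3 comparisons.

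Among the E2 genes, Ube2e3, which belongs to a class that works with many ligases, rose, while Ube2s and Ube2d3 fell in all 3 columns. Ube2e3 stood at 28.5 and 34.6 FPKM in controls and at 134 and 136, 145 and 104, and 159 and 73.6 in the columns headed 4-cell-con, late-2-cell-TSA and late-2-cell-Sirt1 (adjusted p = 0.0172, 0.0144 and 0.0276). Ube2s fell from 159 and 113 FPKM to between 15.0 and 33.9 in the 6 libraries, near its early 2-cell level of 31.2 and 33.6. Its log2 differences were -2.36, -2.14 and -2.61 (SE 0.37 each, adjusted p = 0.00548, 0.00435 and 0.00279), and these calls were kept without any 1 library. Its APC/C partner Ube2c did not fall with it, at 217 to 321 FPKM in the 6 libraries against 179 and 246 in controls. Ube2d3, a general E2, fell from 64.4 and 63.9 FPKM to between 12.1 and 21.4 (adjusted p = 0.0378, 0.0265 and 0.0158). Its calls against the columns headed 4-cell-con and late-2-cell-TSA were lost without any 1 library (0.0658 to 0.118), and that against late-2-cell-Sirt1 without library A of that column (0.0603). The Ube2e3 calls were lost without control library A in each comparison (0.0605, 0.0574 and 0.0921), and further without 4-cell-con library A or B (0.056 and 0.0765), late-2-cell-TSA library A (0.0866), and late-2-cell-Sirt1 library A or control library B (0.136 and 0.0597). Ube2j2 rose only in the column headed late-2-cell-TSA, to 103 and 124 FPKM from 49.3 and 51.2 (adjusted p = 0.0434, lost without any 1 library), though it was above both controls in the other columns as well.

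The counts were read against those of all genes. In the column headed 4-cell-con, 4 members rose and 2 fell, with 12.3% of all genes called, and 11 proteasome and 1 Ube2 genes were more than 2-fold higher against 24.2% of genes, with 2 and 4 lower against 33.8%. In that headed late-2-cell-TSA, 6 rose and 3 fell with 19.5% of genes called, and 13 and 5 were more than 2-fold higher against 23.2%, with 4 and 8 lower against 41.3%. In that headed late-2-cell-Sirt1, 4 rose and 3 fell with 15.1% of genes called, and 13 and 6 were more than 2-fold higher against 24.3%, with 2 and 6 lower against 36.6%. Thus 11 to 13 of 24 proteasome genes were past 2-fold upward in a table where about 1 gene in 4 was. Of the Ube2 genes at 1 FPKM or more in either column, 1 of 18, 5 of 20 and 6 of 22 were. Calls by limma in the proteasome family numbered 3, 5 and 4. Centring each library on its median gave 5, 19 and 9 called members in place of 6, 9 and 7. Over all genes it called 414 higher and 429 lower of 8626, 1754 and 534 of 8417, and 755 and 491 of 8534. It ended the calls of Ube2d3 in all 3 comparisons and of Psme4 in both where it was called. It also ended that of Ube2s in the column headed late-2-cell-TSA. A fit of the columns compared alone, a pseudocount of 0.1 or no minimum ended at least 1 call each of Psma5, Psmg3, Psmd7, Psmd8, Ube2d3, Ube2e3 and Ube2j2, while Psma4 kept its call in all settings tried on the same columns.

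**Figure D3:**
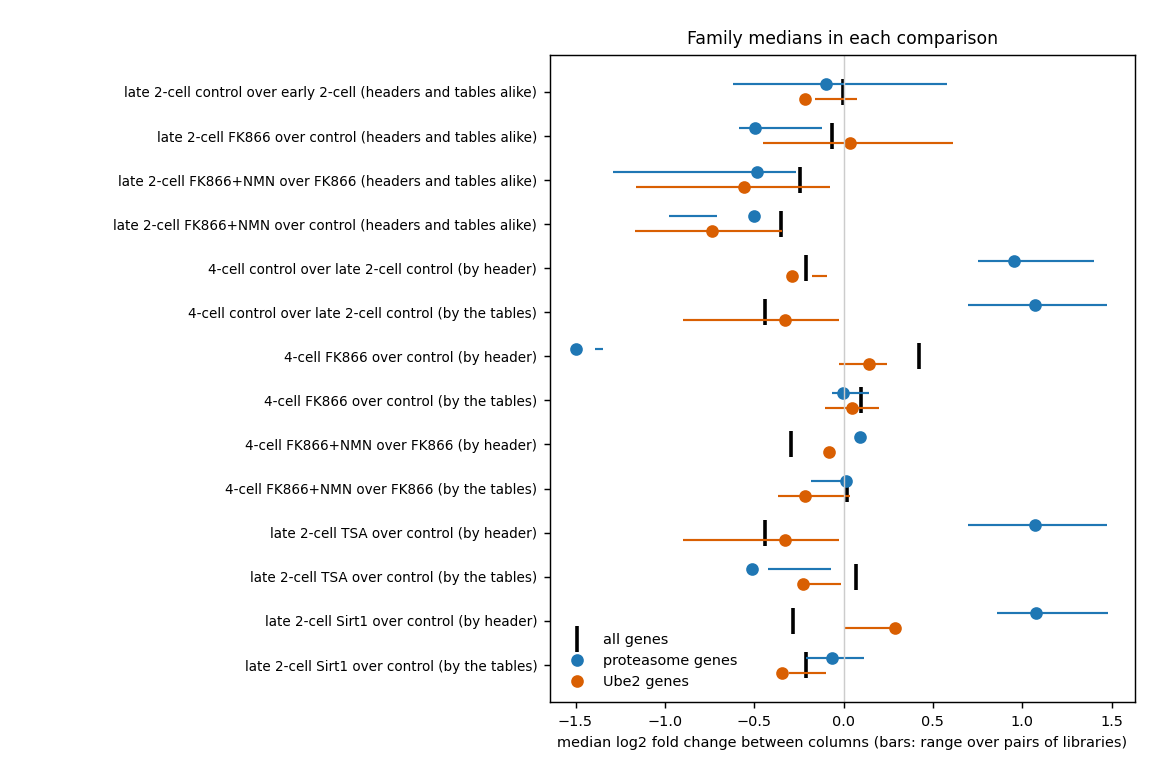
Median log2 fold change, on the scale of FPKM per library plus 1, of the proteasome genes (blue) and Ube2 genes (orange) in each comparison, with all genes as black ticks. Bars span the medians over pairs of single libraries and need not hold the median of the columns, because a median of sums is not one of its parts. The proteasome medians of 0.95 to 1.08 stand apart from the all-gene medians of -0.44 to -0.21 in the comparisons of the columns headed 4-cell-con, late-2-cell-TSA and late-2-cell-Sirt1 with the late 2-cell control.

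FK866 at the 4-cell stage gave different results under the 2 readings. By header, the single library headed 4-cell-FK866 is set against the column headed 4-cell-con, and 16 of the 17 core and cap subunits were lower in it by any amount. Psma4 stood at 2.97 FPKM (33 reads) against 122 and 132 (log2 difference -5.01, SE 0.43, adjusted p = 7.03e-05). Psmc4 had 1 read against 31.6 and 31.3 FPKM (adjusted p = 0.00102), and Psmd13, another cap subunit, had none against 16.4 and 12.6 FPKM (adjusted p = 0.00905). Psmb2, Psmg3 and Psma5 were the other proteasome genes that fell. Psme4 rose to 97.4 FPKM from 27.7 and 21.1 (1.97, SE 0.56, adjusted p = 0.0263) and Psmf1 to 21.0 from 2.07 and 2.58 (2.73, SE 0.79, adjusted p = 0.0281). Ube2j2, Ube2c and Ube2e3 fell, and Ube2j2 stood at 12.7 FPKM against 86.9 and 83.4 (adjusted p = 0.00183).

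These 11 calls stood against 30.7% of all genes called. The calls of Psma5 and Psmf1 were lost without either 4-cell-con library (adjusted p from 0.0693 to 0.0829), and those of Ube2e3 and Psme4 without library B (0.0512 and 0.0864). A fit of these columns alone ended the calls of Psme4, Psmf1, Psmb2, Psmg3 and Ube2c, and centring on the median those of Psme4 and Psmf1. More than 2-fold lower were 14 proteasome and 4 Ube2 genes against 32.9% of genes, and 3 and 4 were higher against 41.8%. The medians were -1.49 for the proteasome genes, 0.14 for the Ube2 genes and 0.42 for all genes. With 1 library, the lone sample was taken to vary like the others.

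By the tables, the same question compares the columns headed late-2-cell-Sirt1 and late-2-cell-TSA, and no member passed by limma of 46 tested. An unadjusted p under 0.05 was found for 3 members, and 0.236% of all genes were called. Psma4 stood at 158 and 96.5 against 127 and 124 FPKM, and Psme4 at 12.3 and 11.6 against 11.6 and 12.4. The libraries of both genes overlapped. The medians were -0.0015 for the proteasome genes, 0.05 for the Ube2 genes and 0.10 for all genes. More than 2-fold higher were 3 and 4 members of the families against 21.2% of genes, and 1 proteasome gene, Psmd13, was lower against 13.4%.

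Adding NMN to FK866 at the 4-cell stage is, by header, a comparison of 2 single libraries, so neither has a replicate and the SE and p rest on the spread within other columns. Under that assumption Psma4 passed the test, at 24.6 FPKM with NMN against 2.97 (log2 difference 2.69, SE 0.49, adjusted p = 0.00704) and so did Ube2j2, at 58.4 against 12.7 (2.12, SE 0.49, adjusted p = 0.0229), and no other member passed, with 10.4% of genes called. Of the families 8 and 3 members were more than 2-fold higher against 25.0% of genes, and 6 and 4 lower against 34.7%. The medians were 0.09, -0.08 and, for all genes, -0.29, and no library could be left out. By the tables it compares the columns headed 4-cell-con and late-2-cell-Sirt1. There 0 of 45 members passed by limma, 1 had an unadjusted p under 0.05, and 0.225% of genes were called. None was more than 2-fold higher and 5 Ube2 genes were lower, against 14.8% and 11.5% of genes. The medians were 0.02 for the proteasome genes and -0.22 for the Ube2 genes.

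Under the tables' reading, TSA and Sirt1 are the single libraries headed 4-cell-FK866 and 4-cell-FK866-NMN, set against the late 2-cell control. For TSA, Psma4 was at 2.97 FPKM against 29.0 and 24.5 (log2 difference -2.80, SE 0.43, adjusted p = 0.00211), Psmc4 was at 1 read against 284 and 274 (adjusted p = 0.00224), and Psmb10 at 3.76 FPKM against 36.9 and 27.7 (adjusted p = 0.0356). Ube2j2 and Ube2s fell with them, to 12.7 and 43.7 FPKM (adjusted p = 0.0165 and 0.0497). Psme4 stood at 97.4 FPKM, above both controls, without passing the test. The Psmb10 call was lost without either control library (0.0928 and 0.0542) and the Ube2s call without control library A (0.115), and none of the 5 calls was kept in a fit of these columns alone. In all, 5 members fell and none rose, against 12.4% of genes called. More than 2-fold higher were 3 proteasome and 3 Ube2 genes against 30.1% of genes, and 7 and 5 were lower against 29.7%. The medians were -0.52, -0.23 and, for all genes, 0.07.

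For Sirt1 by the tables, 0 of 42 members passed by limma, 4 had an unadjusted p under 0.05, and 1.80% of genes were called. Ube2s, at 31.5 FPKM against 159 and 113, had the lowest adjusted p of the members (0.0608). Psme4 was at 131 FPKM, the highest of the 16 libraries, against 53.8 and 60.4. By size, 3 proteasome and 1 Ube2 genes were more than 2-fold higher against 16.4% of genes, and 5 and 6 were lower against 28.2%. The medians were -0.06, -0.35 and, for all genes, -0.21.

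**Figure D4:**
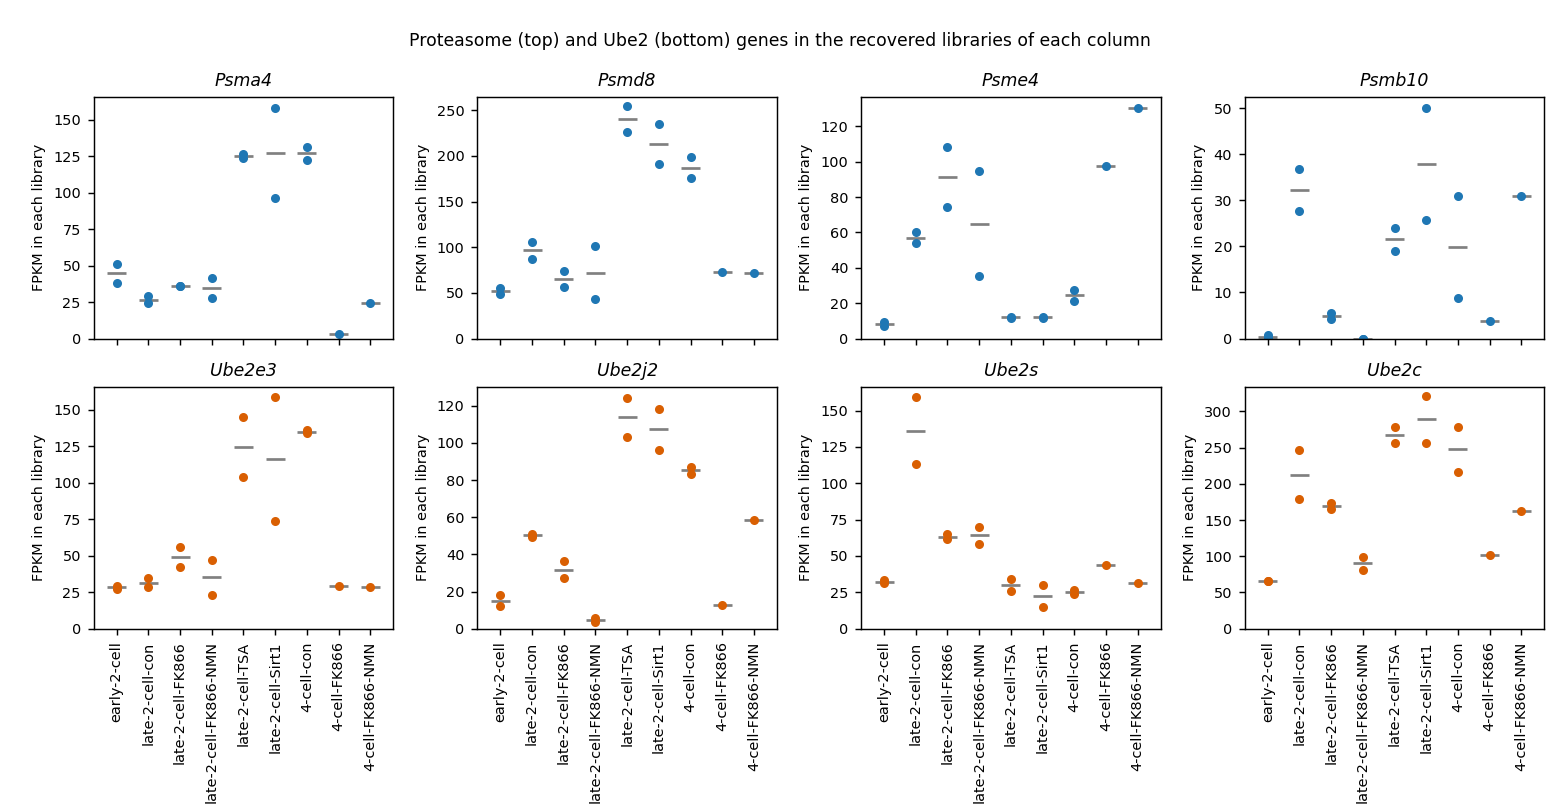
FPKM in each recovered library (points) with the mean of the column (grey bar), for 4 proteasome genes (top) and 4 Ube2 genes (bottom), over the 9 column headers on linear axes from 0. Psma4, Psmd8, Ube2e3 and Ube2j2 are highest in the columns headed late-2-cell-TSA, late-2-cell-Sirt1 and 4-cell-con, where Psme4 and Ube2s are low.

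Over the 9 columns, members were compared with the median profile of the other proteasome genes, as a description with no test, since the columns share stages and libraries. Of the 17 proteasome genes at 1 FPKM or more in every column, 10 had Pearson's r above 0.5 and 2 had r below -0.5. Psmd8 followed the profile most closely of these (r = 0.88), and Psmb4 (0.85) and the ATPase gene Psmc3 (0.84) came next. Psmf1 (-0.88) and Psme4 (-0.76) ran opposite to it. Of 13 such Ube2 genes, 5 had r above 0.5, led by Ube2g2 (0.92) and Ube2j2 (0.87), both E2 enzymes of the endoplasmic reticulum. Ube2j1, of the same class, did not follow the profile (r = -0.17). Ube2d3 (-0.90), Ube2k (-0.72), Ube2s (-0.64) and Ube2h (-0.61) ran opposite. The medians of the 2 families had r = 0.42 over the 9 columns. The share of all genes past r of 0.5 or -0.5 is not given here, so these counts are not read as particular to the members.

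Other genes of the pathway came from 3 lists, of which 14, 14 and 15 genes have a row. From the early to the late 2-cell stage, 4 of the 14 genes at 1 FPKM or more in the list of ubiquitin, ubiquitin-like proteins and E1 enzymes rose and 1 fell, with 21.3% of all genes called. Among them Rps27a, which encodes ubiquitin fused to a ribosomal protein, rose by 3.50 and Urm1 by 2.00 on the log2 scale (limma adjusted p = 0.000547 and 0.024), and Sumo3 fell by 1.51 (0.046). Of the assembly, regulation and shuttle factors only Zfand2a rose, and of the APC/C genes none passed. Against the late 2-cell control, Adrm1, a ubiquitin receptor of the cap, rose by 2.15, 2.06 and 2.75 in the columns headed 4-cell-con, late-2-cell-TSA and late-2-cell-Sirt1 (adjusted p = 0.0119, 0.00875 and 0.00385). Cdc20, an activator of the APC/C, rose by 1.36, 1.39 and 1.50 (adjusted p = 0.0477, 0.0324 and 0.0293), and Ecpas, a proteasome scaffold, fell by 1.70, 3.58 and 1.61 (0.0273, 0.000715 and 0.0289). In these 3 comparisons 2 to 3 factors of the first list rose and 1 to 2 fell, 1 to 2 APC/C genes rose and at most 1 fell, and 2 to 3 genes of the ubiquitin list rose and none fell, with 12.3%, 19.5% and 15.1% of all genes called. With FK866 at the 4-cell stage by header, 2 factors of the first list rose and 2 fell, 3 APC/C genes fell, and 1 gene of the ubiquitin list rose and 4 fell, with 30.7% of all genes called, Cdc20 by 3.56 (adjusted p = 0.000674) and Rps27a by 3.19 (0.00254). Adding NMN by header, only Cdc20 passed, higher with NMN (10.4% of all genes called). With FK866 and NMN at the late 2-cell stage, 1 APC/C gene, Anapc4, and 1 gene of the ubiquitin list fell against controls (6.91%). For TSA by the tables, 2 APC/C genes and 3 of the ubiquitin list fell, Cdc20 by 2.20 (adjusted p = 0.014) and Urm1 by 2.32 (0.0444), with 12.4% of all genes called. None of the 3 lists had a gene past the limma threshold in the other 5 comparisons, those of late 2-cell FK866 with control and with NMN added, and of FK866, NMN and Sirt1 by the tables.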

How the data were processed

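Gene expression was measured by RNA-seq in 18 samples of 9 groups. The authors deposited FPKM values, 1 column per group, made with Trim Galore for trimming, HISAT2 for alignment (mm10) and featureCounts for counting. CUT&Tag samples were not used here. The deposited FPKM columns are sums over libraries. Multiplied by the exon length of each gene (GENCODE M21), values fell on whole reads of 2 libraries or 1, which gave library totals and reads for 97.7% to 98.8% of values per column (numpy 2.4.6, pandas 2.3.3). Read steps carry no replicate number, so A and B are names only. Depth covers counting error only, and p-values measure the spread between libraries of 3 embryos, which may be partly technical. The submitters' processing notes name CASAVA 1.4.

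Column differences were log2(FPKM per library + 1), which understates changes of low genes, over genes at 1 FPKM or more in either column, with more than 2-fold as a call by size. Libraries were tested with limma 3.58.1 (R 4.3.3, trend, 1 fit of 16 libraries and 11885 genes), Benjamini-Hochberg adjusted over all such genes, two-sided, threshold 0.05. Recovery and fit were tested on simulated data. Members named were the 6 highest per family, those past a threshold (at most 6 per direction and family) and a list set by role. Members and lists were chosen with earlier results of these data known. Some genes of these lists are not reported here.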

Additional observations from a re-analysis of the deposited data

Results flagged for a closer look

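The effect of FK866 at the 4-cell stage was set against its effect at the late 2-cell stage with an interaction term in the limma fit. By header, 3 of 44 members differed between the stages, against 12.4% of all genes. Psma4 differed by -5.42 on the log2 scale (SE 0.55, adjusted p = 0.000508), as it was lower with FK866 at the 4-cell stage (2.97 against 122 and 132 FPKM) and higher at the late 2-cell stage (35.8 and 36.1 against 29.0 and 24.5). Ube2e3 differed by -2.78 (SE 0.70, adjusted p = 0.0316) and Ube2j2 by -1.99 (SE 0.55, adjusted p = 0.0427). All 3 rest on the single library headed 4-cell-FK866. Under the tables' reading, 0 of 47 members and 0 of 9846 genes differed by this test, and 4 members had an unadjusted p under 0.05.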

How the results depend on the processing

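No paired analysis was possible because the columns carry no replicate numbers. A planned list without Psmc3ip was void, since this gene has no row. The list without Psme3ip1 and Ube2cbp was chosen after seeing the data. Single-library columns and p-values from few libraries limit every comparison, and low genes cannot be resolved. The cause of each change given here was not tested.

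With the columns assigned by the tables, the proteasome median became -0.0015 for FK866 at the 4-cell stage, -0.52 for TSA and -0.064 for Sirt1, and the Ube2 median -0.33 for the stage step and -0.35 for Sirt1. Members called became 0 for FK866, 0 for NMN, 5 for TSA and 0 for Sirt1. Among the members called by header, the log2 differences that turned direction were, for FK866, those of Psmf1 (-0.26), Ube2c (0.10), Psmg3 (1.01), Psmc4 (0.34) and Psme4 (-0.0074), and for NMN that of Ube2j2 (-0.32). For TSA they were those of Ube2e3 (-0.10), Psma5 (-0.43), Ube2j2 (-1.90), Psmd8 (-0.41), Psmd7 (-0.48), Psma4 (-2.80) and Psme4 (0.76). For Sirt1 they were those of Ube2e3 (-0.13), Ube2d3 (0.12), Psmg3 (-1.58), Psma4 (-0.11) and Psme4 (1.18).

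Centred on the median of each library, the proteasome median was -0.37 for FK866 with NMN over the late 2-cell control, 1.42 for the stage step to 4-cell, -2.14 for FK866 and 0.42 for NMN at the 4-cell stage, 1.69 for TSA and 1.54 for Sirt1, all by header. The Ube2 median was -0.38 from early to late 2-cell, 0.17 for the step to 4-cell, -0.50 for FK866 and 0.24 for NMN at the 4-cell stage, 0.29 for TSA and 0.75 for Sirt1, so that it turned direction in the step, FK866, NMN and TSA. Ube2c turned to 0.17 for FK866 with NMN over the late 2-cell control. Calls became 5 for late 2-cell NMN over FK866 and 19 for TSA. Over all genes, the centred calls were 1070 higher and 53 lower of 8338 for the first, and 1754 and 534 of 8417 for TSA.

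With a pseudocount of 0.1 there was 1 call for FK866 and there were 5 for late 2-cell NMN over FK866, the Ube2 median of the step to 4-cell was -0.33, and the proteasome median for FK866 at the 4-cell stage was -1.61. With a pseudocount of 5 these were 1 call for NMN over FK866, -0.20 and -1.21, with 17 calls for FK866 at the 4-cell stage and 11 for Sirt1. With a minimum of 5 FPKM the Ube2 medians were -0.066 from early to late 2-cell, -0.083 for the step to 4-cell and 0.13 for Sirt1, and with no minimum -0.083 and -0.11 for the first 2. In a fit of the 2 columns compared, 0 members were called for FK866 with NMN at the late 2-cell stage against FK866 and 0 against control. That fit called 0 of all 8338 genes against FK866 and 0 of 8379 against control. Without Psme3ip1 and Ube2cbp the proteasome median for FK866 at the 4-cell stage was -1.63 and the Ube2 median for Sirt1 0.44.

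Leaving out 1 library at a time, the proteasome median ranged from -0.48 to 0.13 for FK866 at the late 2-cell stage, -1.20 to -0.36 for NMN over FK866 and -1.11 to -0.15 for FK866 with NMN over control there, 0.96 to 1.24 for the step to 4-cell and -1.39 to -1.35 for FK866 at the 4-cell stage. The Ube2 median ranged from -0.40 to 0.060 from early to late 2-cell, -0.90 to 0.0098 for late 2-cell NMN over FK866, -0.49 to -0.11 for the step to 4-cell, -0.57 to 0.17 for TSA and 0.10 to 0.59 for Sirt1. Calls over all genes changed with the library left out as well, and rose in the late 2-cell comparisons of FK866 and NMN. The ranges of member calls that follow are therefore not read as particular to the members. Calls ranged from 6 to 9 from early to late 2-cell, 0 to 2 for FK866, 2 to 8 for NMN over FK866 and 5 to 14 for both over control at the late 2-cell stage, 2 to 5 for the step to 4-cell and 2 to 6 for TSA.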
